A study of Saccharomyces cerevisiae with 50 samples.

Results

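Nrg1p binding was examined here through the 6 ChIP-Seq peak lists of myc-tagged Nrg1p, 3 from sut1Δ cells and 3 from wild-type cells. These 6 immunoprecipitations (IPs) are part of a series of 50 yeast samples on 6 transcription factors, and they hold 165 of its 8486 called peaks. All peaks of the 6 lists were taken, and peaks that shared at least 1 bp were merged into 95 regions. Both strains carried NRG1 with a C-terminal myc tag in the W303-derived strain Z1256, and in the deletion strain SUT1 had been replaced by a kanamycin resistance marker. Cells grew in rich glucose medium (YPD) at 30 °C to mid-log phase (OD600 of about 0.8), without rapamycin, and were crosslinked with 1% formaldehyde for 15 min. Per the methods, the wild-type IPs came from a single culture that was split, whereas the 3 sut1Δ IPs came from cultures grown separately. Strain and culture therefore cannot be told apart. The wild-type replicates share their growth and may hold technical spread only, while the sut1Δ replicates also hold spread between cultures. SDs, P-values over IPs and the agreement of replicates therefore do not mean the same in both strains. Each strain had 1 INPUT sample for its 3 IPs, used by the authors in calling peaks. INPUT and strain therefore cannot be told apart, and the lists of a strain are not independent in this respect.

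Nrg1p is a zinc-finger repressor that recruits the general corepressor Cyc8p-Tup1p. In cells growing on glucose it keeps genes for other carbon sources, for sodium export and for filamentous growth low, and the kinase Snf1p counteracts it when glucose runs out. Sut1p is a zinc-cluster transcription factor known from sterol uptake under low oxygen. The comparison of the strains asks whether Nrg1p sits at different promoters once Sut1p is missing.

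The height of a peak is given here by its MACS score, a measure of the significance of the enrichment that is larger for smaller P-values and never below 50 in these lists. A score grows with the number of reads as well as with enrichment. Read counts are not part of the lists. The depth of each IP and INPUT is therefore unknown, and its part in any score difference between strains was not tested. A region without a peak in an IP is written as having none, which means that nothing passed the authors' threshold there and not that Nrg1p was absent. Peak lists cannot show whether SUT1 was deleted.

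The sut1Δ lists held 26, 49 and 19 peaks in replicates 1, 2 and 3, against 15, 9 and 47 in the wild-type lists. The strains overlapped, with means of 31.3 ± 15.7 peaks in sut1Δ and 23.7 ± 20.4 in wild type (SD, n = 3 each, two-sided exact permutation P = 0.5). Without sut1Δ replicate 2 the difference of 7.67 peaks turned to -1.17. Promoters were defined as the 600 bp before the start of each of 6430 genes (R64 annotation). They were touched by a peak in 45, 86 and 22 cases in the sut1Δ IPs and in 18, 14 and 85 cases in the wild-type IPs (exact permutation P = 0.5 with n = 3 each, a difference of 12 that turned to -5.5 without sut1Δ replicate 2 and -0.5 without wild-type replicate 2). Peaks were mostly promoter peaks in both strains, 92.3%, 87.8% and 78.9% in the sut1Δ IPs and 80%, 100% and 85.1% in the wild-type IPs. What separated the strains was the height of the calls. The median score of a list was 182, 230 and 151 in sut1Δ, against 66.8, 90.7 and 92.3 in wild type. Every sut1Δ list thus lay above every wild-type list, a mean difference of 104 that reached the smallest P that 3 against 3 IPs allow (188 ± 39.9 in sut1Δ and 83.3 ± 14.3 in wild type, SD, n = 3 each, two-sided exact permutation P = 0.1). No smaller P can be reached with these IPs, so the difference cannot pass a conventional threshold. The median width of a peak was 1231, 1448 and 1152 bp in sut1Δ and 972, 1183 and 1197 bp in wild type, which overlapped.

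**Figure D1:**
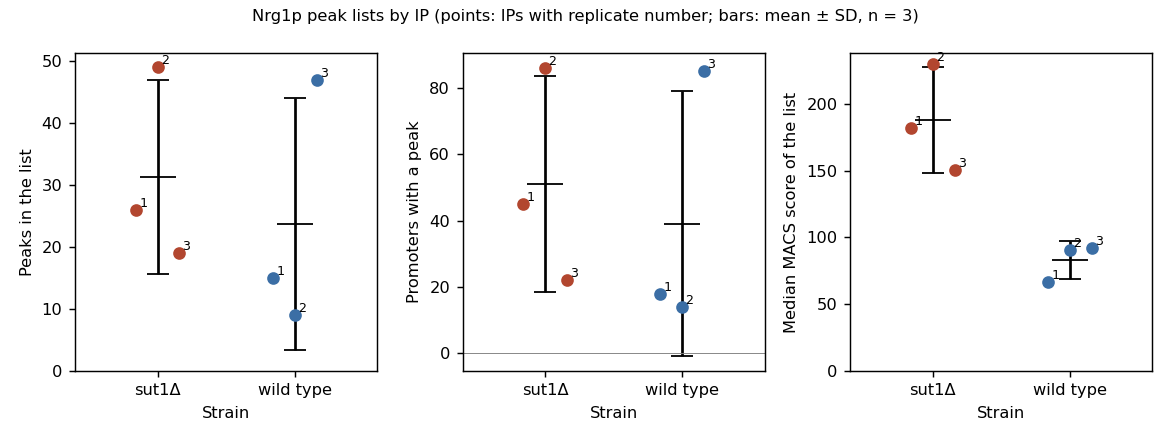
Number of Nrg1p peaks, number of promoters with a peak and median MACS score of each list, for sut1Δ (left, red) and wild type (right, blue); points are IPs with their replicate number, and bars are the mean ± SD over 3 IPs. Peak and promoter numbers of the strains overlap, while the median scores of 151 to 230 in sut1Δ all lie above the 66.8 to 92.3 of wild type.

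The sut1Δ replicates recovered largely the same sites. In sut1Δ, 25 of 26, 28 of 49 and 19 of 19 peaks were overlapped by a peak of another sut1Δ IP. In wild type the counts were 8 of 15, 6 of 9 and 8 of 47. All 19 peaks of sut1Δ replicate 3 were also found in sut1Δ replicate 2. Counted in bases, pairs of sut1Δ lists shared 47.4%, 39.8% and 29.7% of their union, pairs of wild-type lists 20.6%, 9.71% and 7.14%, and pairs across strains between 8.47% and 23.8%. Wild-type replicate 3 stood apart from the other IPs. Of its 47 regions, 34 were seen in no other Nrg1p IP (72.3%), against 19 of 49 for sut1Δ replicate 2 (38.8%), 1 of 26 for sut1Δ replicate 1, none of 19 for sut1Δ replicate 3, 6 of 15 for wild-type replicate 1 (40%) and 3 of 9 for wild-type replicate 2 (33.3%).

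**Figure D2:**
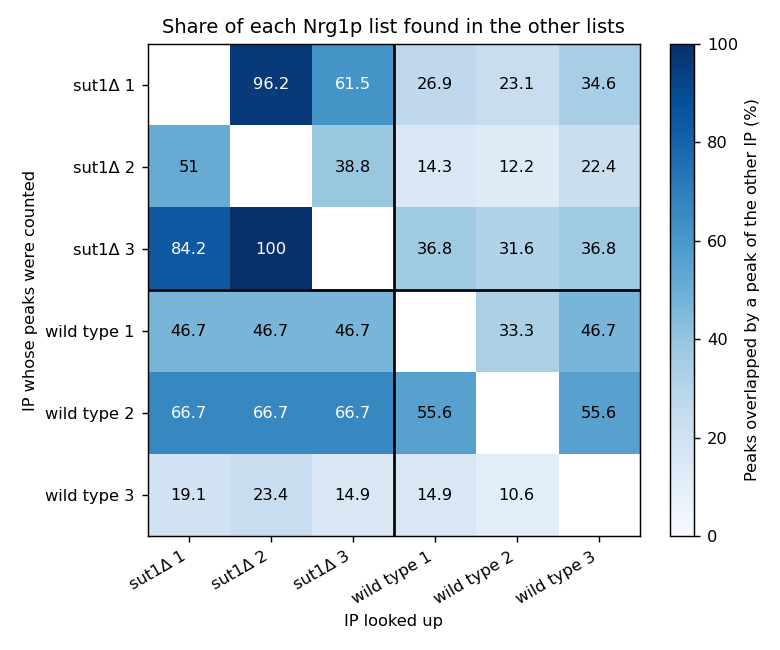
Percent of the peaks of each IP (vertical axis) that are overlapped by a peak of another IP (horizontal axis), with sut1Δ above and to the left of wild type. All peaks of sut1Δ replicate 3 lie in the list of sut1Δ replicate 2 (100%), whereas wild-type replicate 3 shares between 10.6% and 23.4% of its peaks with any other list.

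The series also holds wild-type lists of 5 other tagged factors (Gcn4p, Rtg3p, Sut1p, Swi4p and Swi6p), which show how far Nrg1p peaks fall where other factors were called too. In the sut1Δ IPs, 2, 8 and 1 peaks lay at wild-type peaks of 3 or more of these factors (7.69%, 16.3% and 5.26%), against 3, 0 and 19 in the wild-type IPs (20%, 0% and 40.4%). The highest share belonged to wild-type replicate 3. Of the 34 regions seen only there, 17 had wild-type peaks of 3 or more other factors (50%). All 34 had a peak in some of the 6 Sut1p IPs, which held 3532 peaks. The same was true of 20 of the 28 regions with a peak in at least 2 sut1Δ IPs (71.4%). What this sharing contributed to the list of wild-type replicate 3 was not tested.

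**Figure D3:**
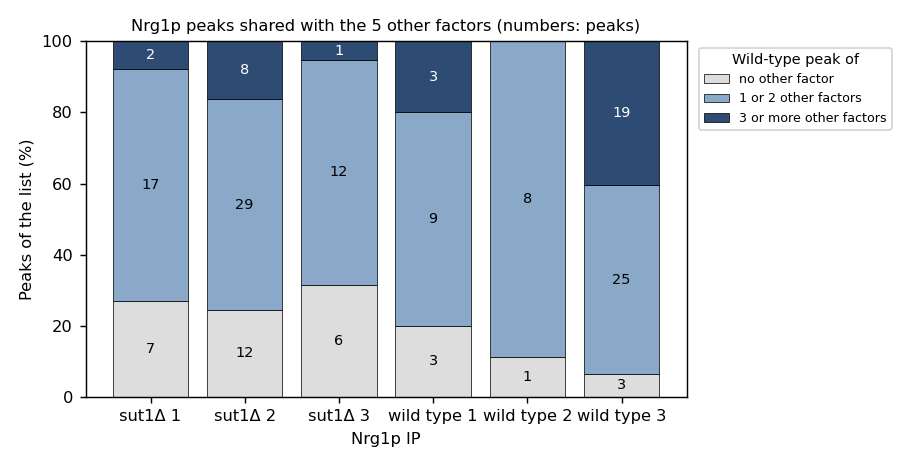
Percent of the peaks of each Nrg1p IP at which no, 1 or 2, or 3 or more of the 5 other factors had a wild-type peak; numbers are peaks, with sut1Δ on the left. The top class holds 19 of 47 peaks in wild-type replicate 3, 8 of 49 in sut1Δ replicate 2 and 3 or fewer in the other lists.

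Sites were called reproducible where at least 2 of the 3 IPs of a strain had a peak. By this rule 45 of 6430 promoters (0.7%) were occupied in sut1Δ and 12 (0.187%) in wild type, of which 9 were shared. Because neighboring genes often lie under the same peak, these promoters correspond to fewer sites. As regions, 28 of 95 were reproducible in sut1Δ, 9 in wild type and 7 in both, so that 30 were reproducible in some strain. Of the 28 sut1Δ regions, 25 overlapped a promoter, 17 had no peak in any wild-type IP and 11 had at least 1. Of the 9 wild-type regions, 7 had a peak in every sut1Δ IP and the other 2 had none. A peak in every sut1Δ IP and in no wild-type IP was found at 11 promoters (0.171%), in 7 regions, whereas the opposite pattern was found at 0 promoters (0%). In 13 of the 95 regions (13.7%) the scores of all sut1Δ IPs exceeded those of all wild-type IPs, where a missing peak was ranked lowest. No region showed the reverse. Both opposite patterns needed a peak in wild-type replicate 2, whose list held only 9 peaks, 6 of them overlapped by a sut1Δ peak. The shortest sut1Δ list held 19 peaks, so the lists left less room for the opposite patterns. A per-site exact permutation test cannot go below P = 0.1 with 3 IPs per strain, so no single site passes an adjusted threshold. The counts changed when an IP was left out, in a direction that the rules set in advance. With 2 IPs left in a strain, a reproducible promoter needed both, so this number could only stay or fall. The number with a peak in every IP of 1 strain and none of the other could only stay or rise. Without sut1Δ replicate 2 or 1, the reproducible sut1Δ promoters numbered 20 or 22, and without wild-type replicate 1 or 3 the reproducible wild-type promoters numbered 6. Without sut1Δ replicate 3 the promoters with a peak in every sut1Δ IP and no wild-type IP numbered 27, and without wild-type replicate 2 the opposite pattern was found at 3. The pattern of both strains at all 30 regions is drawn in the plot of region scores.

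**Figure D4:**
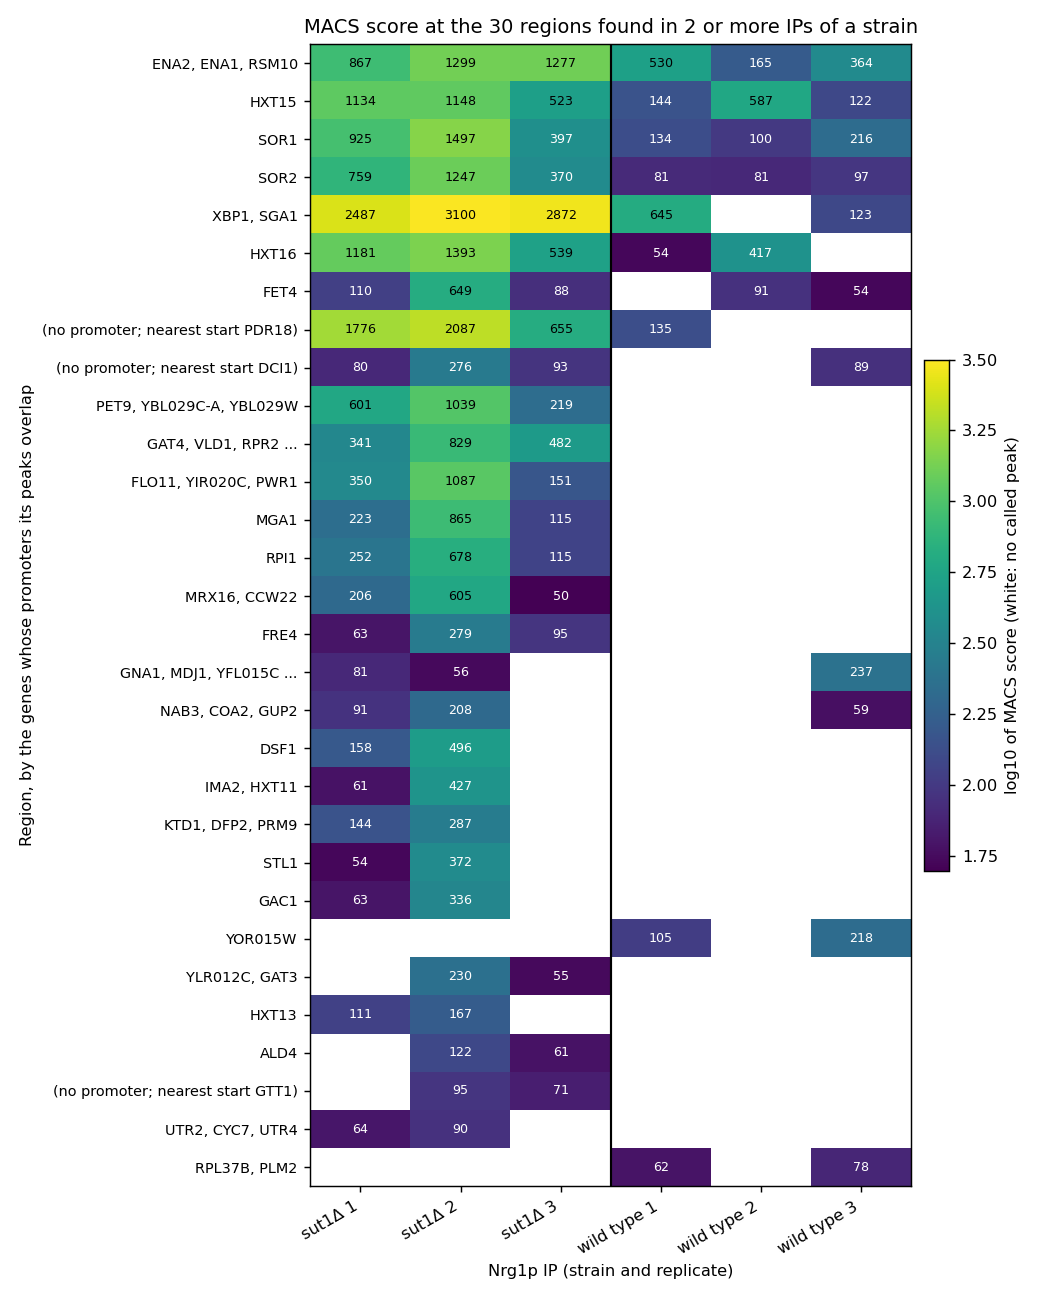
MACS score of the Nrg1p peak at each of the 30 reproducible regions (rows, sorted by the number of IPs with a peak and then by summed score) in the 3 sut1Δ IPs (left of the line) and the 3 wild-type IPs (right); color is log10 of the score, printed numbers are scores, and white cells have no called peak. 4 regions are filled in all 6 IPs, 7 are filled in every sut1Δ IP and no wild-type IP, and 2, at YOR015W and at RPL37B and PLM2, are filled in wild type only.

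The site with the highest score in the sut1Δ strain lay between XBP1 and SGA1 (chr9:176731-178884, R64), which are transcribed away from each other. XBP1 encodes a stress-induced transcriptional repressor and SGA1 a glucoamylase of sporulating cells. Its peak scored 2487.29, 3100.00 and 2871.63 in the sut1Δ IPs, the top rank in each list, against 644.91, none and 123.20 in the wild-type IPs. It was also the top peak of wild-type replicate 1, but ranked 14 of 47 in wild-type replicate 3 and was missing from wild-type replicate 2. The value 3100.00 recurs 197 times among the 8486 peaks of the series, with 16 above it, so scores may not rank peaks of this height. No peak of any other factor, in any strain, overlapped this region.

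The next site was intergenic (chr14:763578-764677) and touched no 600-bp promoter. The closest start was that of PDR18, an ABC transporter gene, with peak centers between 1243 and 1266 bp upstream. Its scores were 1776.49, 2087.49 and 655.43 in sut1Δ, ranks 2, 2 and 3, and 135.13, none and none in wild type. The groups did not overlap, and here again no other factor had a peak.

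Genes for sorbitol use and for hexose-type transport were among the sites that most IPs shared. SOR1 and SOR2 encode nearly identical sorbitol dehydrogenases, and HXT15 and HXT16 nearly identical members of the hexose transporter family that are known to carry sugar alcohols. The 2 pairs lie near chromosome ends, SOR2 and HXT15 side by side on chromosome 4 and SOR1 and HXT16 on chromosome 10. The authors kept uniquely aligned reads only, and reads in stretches shared by the copies would have been lost, so values of such pairs are uncertain.

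SOR1 (chr10:734985-736308) scored 925.12, 1496.54 and 397.31 in sut1Δ IPs, against 133.70, 100.31 and 215.71 in wild-type IPs. SOR2 (chr4:9668-10804) scored 759.15, 1246.58 and 370.15 in sut1Δ, against 81.35, 81.10 and 96.54 in wild type. At both genes the lowest sut1Δ score was above the highest wild-type score. The mean was 940 ± 550 in sut1Δ and 150 ± 59.4 in wild type at SOR1, and 792 ± 439 in sut1Δ and 86.3 ± 8.84 in wild type at SOR2 (SD, n = 3 each).

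HXT15 (chr4:13152-14360) scored 1134.44, 1148.38 and 523.07 in sut1Δ IPs, against 144.42, 586.96 and 121.90 in wild-type IPs. These ranges overlapped, because wild-type replicate 2 had its highest peak of all here and lay above sut1Δ replicate 3. HXT16 (chr10:731461-732657) scored 1181.00, 1392.82 and 539.42 in sut1Δ, against 53.54, 416.51 and none in wild type, with no overlap. Peak centers fell at closely matched distances in both strains. They lay 449 to 500 bp upstream of the start of SOR2, 358 to 489 bp upstream of SOR1, 363 to 411 bp upstream of HXT15 and 359 to 397 bp upstream of HXT16.

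A further 6 regions, grouped here after their values were seen, had peaks in 2 sut1Δ IPs and in no wild-type IP. HXT13, a further relative of HXT15, scored 111.10, 166.80 and none in sut1Δ, and its neighbor on chromosome 5, DSF1, which is related to mannitol dehydrogenases, scored 158.41, 496.36 and none. The divergent pair IMA2, an isomaltase gene, and HXT11, a hexose transporter gene, scored 60.94, 426.91 and none. STL1, the glycerol/proton symporter, scored 54.02, 372.43 and none. In each of these 4 regions sut1Δ replicate 2 was highest and sut1Δ replicate 3 had none. A region at ALD4, a mitochondrial aldehyde dehydrogenase gene, scored none, 122.50 and 61.10 in sut1Δ and had no wild-type peak. Its peaks were centered 624 and 824 bp inside the gene, and only that of sut1Δ replicate 2 reached the promoter. GAC1, which encodes a targeting subunit of the protein phosphatase Glc7p for glycogen synthesis, scored 62.75, 335.91 and none in sut1Δ and likewise had none in wild type.

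ENA1, which encodes the sodium-exporting ATPase and is a classic Nrg1p target, was the remaining site found in all 6 IPs (chr4:535044-540464, with the promoters of ENA2 and RSM10). The region scored 866.62, 1298.92 and 1277.27 in sut1Δ IPs and 530.06, 164.87 and 363.89 in wild-type IPs. The strains did not overlap, with means of 1148 ± 244 in sut1Δ and 353 ± 183 in wild type (SD, n = 3 each). The extent of the call varied between replicates of either strain. In sut1Δ replicate 3 and in wild-type replicates 1 and 3 the peak ended upstream of the ENA1 start, with centers 987, 664 and 654 bp from its start. In sut1Δ replicates 1 and 2 and in wild-type replicate 2 it ran across the whole gene to the promoter of ENA2. The ENA genes are tandem near-identical copies whose number can differ between the W303 background and the reference strain, which was not tested.

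**Figure D5:**
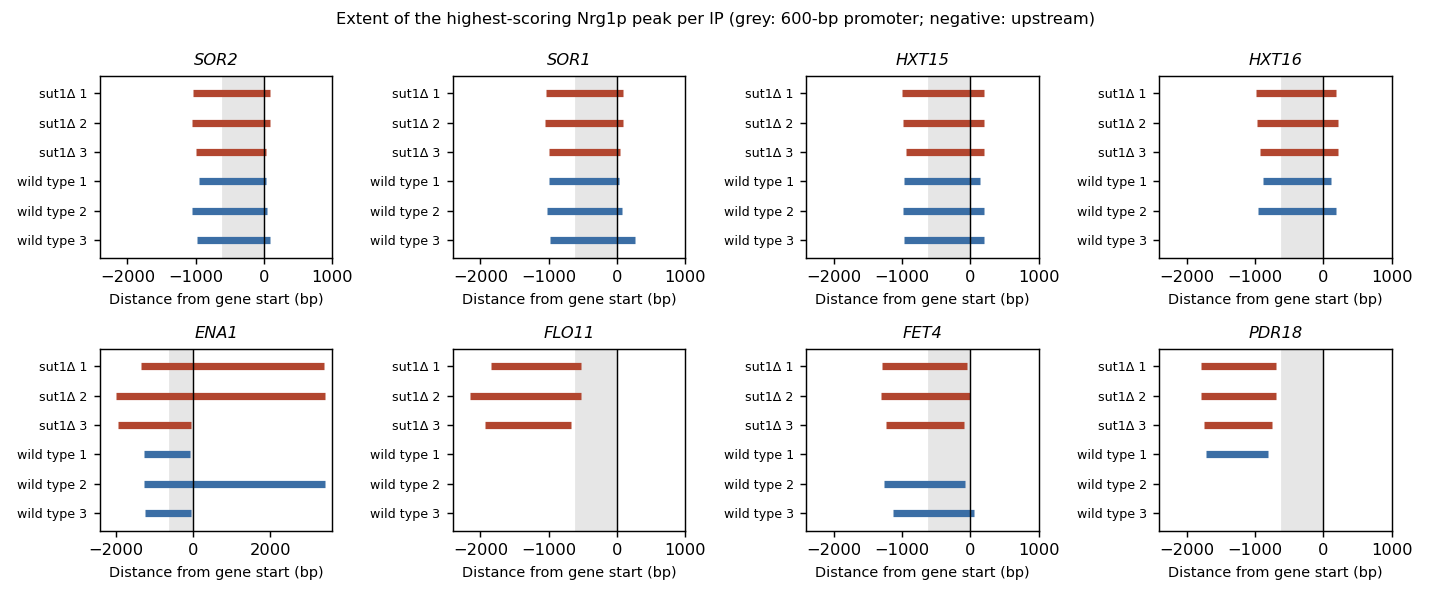
Extent of the highest-scoring Nrg1p peak in each IP around 8 genes, in bp from the gene start (negative is upstream, grey is the 600-bp promoter), with sut1Δ (red) above wild type (blue); an empty line has no peak. Peaks of both strains cover the same stretch at SOR2, SOR1, HXT15, HXT16 and FET4, while the FLO11 peaks lie farther upstream and occur in sut1Δ only.

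Regulators and effectors of filamentous growth were represented among the sut1Δ sites. FLO11, the cell-surface flocculin gene needed for pseudohyphal and invasive growth, had a region (chr9:394201-395828) that scored 350.17, 1087.07 and 150.70 in sut1Δ IPs and had no peak in wild-type IPs. The centers lay 1192 to 1339 bp upstream of FLO11, over the noncoding RNA gene ICR1 and near the start of YIR020C. Only the sut1Δ peaks of replicates 1 and 2 reached into the 600 bp before FLO11. MGA1, which encodes a protein of the heat shock factor type and acts as a multicopy suppressor of pseudohyphal defects, scored 223.19, 864.75 and 115.06 in sut1Δ and had none in wild type. The region upstream of RPI1, a transcription factor gene linked to Ras signaling and cell wall strength, scored 252.38, 677.94 and 114.85 in sut1Δ and none in wild type. These 3 regions had a peak in every sut1Δ IP.

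The other regions with a peak in every sut1Δ IP and in no wild-type IP were 4 in number. The region of YBL029C-A and YBL029W scored 601.00, 1039.26 and 218.98 in sut1Δ, and its peak in replicate 2 also reached the promoter of PET9, the main mitochondrial ADP/ATP carrier gene. The region of GAT4, a gene of the GATA zinc-finger family, and of VLD1 scored 340.96, 828.86 and 481.68, and its peaks in replicates 1 and 2 also covered the promoters of RPR2 and YIR016W. The region of CCW22 scored 205.64, 604.80 and 50.16, the last of which is barely above the lowest score of any list, and in replicates 1 and 2 it reached the promoter of MRX16. FRE4, a ferric reductase gene, scored 63.17, 278.58 and 94.99.

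Across the 28 reproducible sut1Δ regions, the region at CCW22 was the sole one where 3 or more other factors had wild-type peaks (3.57%). Regions that were reproducible in no strain had such peaks in 27 of 65 cases (41.5%). A wild-type Sut1p peak overlapped 17 of the 28 regions (60.7%), among them SOR1, SOR2, YBL029C-A, CCW22, MGA1 and RPI1 with a peak in all 3 wild-type Sut1p IPs. It overlapped 48 of the 65 regions reproducible in no strain (73.8%). Over the Sut1p IPs of both strains, 20 of the 28 regions had a Sut1p peak (71.4%). The regions without one were those of XBP1, FET4, FRE4, KTD1, UTR2, YLR012C and IMA2 and the site near PDR18. Of the 28 regions, 13 had all sut1Δ scores above all wild-type scores and the other 15 overlapped or were tied. Whether a Sut1p peak at a site bears on its Nrg1p score was not tested.

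FET4, the low-affinity iron transporter gene, was reproducible in both strains. It scored 109.56, 649.00 and 87.81 in sut1Δ IPs and none, 90.68 and 53.95 in wild-type IPs, and these overlapped. A site inside DCI1, a peroxisomal isomerase homolog, touched no promoter and scored 80.40, 276.27 and 93.32 in sut1Δ, against none, none and 89.28 in wild type. The promoters of NAB3, COA2 and GUP2 scored 91.35, 207.80 and none in sut1Δ, against none, none and 59.06 in wild type. The region of HSP12, a stress-induced membrane-protective protein gene, and of its neighbors MDJ1 and YFL015C ran the other way. It scored 81.13, 55.88 and none in sut1Δ and none, none and 237.23 in wild type. Of its peaks, that of sut1Δ replicate 1 alone also reached the promoter of GNA1. Among the 11 sut1Δ-reproducible regions found in both strains, it alone had a higher mean score in wild type. The choice by sut1Δ peaks favors a higher sut1Δ mean, as a missing peak counted as 0. Of all 13 regions found in both strains, 11 had the higher mean in sut1Δ. The region of NRG1, not reproducible in either strain, also ran the other way (50.4 in sut1Δ, 128 in wild type).

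The remaining reproducible sut1Δ regions had no wild-type peak. KTD1, DFP2 and PRM9 scored 143.66, 287.04 and none, YLR012C and GAT3, a further GATA-family gene, scored none, 230.26 and 55.18, and UTR2, CYC7 and UTR4 scored 63.80, 89.93 and none. CYC7 encodes the cytochrome c isoform of low-oxygen cells. A site on chromosome 9 without a promoter, nearest to GTT1, scored none, 95.17 and 71.30. There were 2 regions reproducible in wild type only. YOR015W scored none in all sut1Δ IPs and 105.35, none and 218.04 in wild-type IPs, ranks 6 of 15 and 8 of 47 in the lists of wild-type replicates 1 and 3. RPL37B, a ribosomal protein gene, and PLM2, which encodes a forkhead-associated domain protein, scored none in sut1Δ and 62.27, none and 78.03 in wild type, at a place where 3 other factors also had wild-type peaks.

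How far a site list carries over to another IP was examined by taking the promoters shared by 2 IPs of a strain and looking them up in the IP left out. Promoters shared by 2 sut1Δ IPs were found again in the sut1Δ IP left out in 90.9%, 100% and 46.5% of cases (left out in turn were replicates 1, 2 and 3, with 22, 20 and 43 promoters), a mean of 79.1% ± 28.6 (SD, n = 3). The same promoters had a peak in a wild-type IP in 34.8%, 38.3% and 23.3% of cases on average over the 3 wild-type IPs. Promoters shared by 2 wild-type IPs had a peak in a sut1Δ IP in 100%, 70% and 100% of cases (mean 90%) and in the wild-type IP left out in 83.3%, 50% and 83.3% (mean 72.2% ± 19.2, SD, n = 3, with 6, 10 and 6 promoters). Whichever strain supplied the promoters, the sut1Δ IPs thus held more of them than the wild-type IPs in every turn. These turns share IPs, and no test was made of them.

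Lists of genes around known Nrg1p functions were counted over all members. Among 12 regulators, NRG1 alone had a peak at its promoter (8.33%, against 2.58% of all promoters). It scored 151.26 in sut1Δ replicate 2 and 384.53 in wild-type replicate 3 and none in the other 4 IPs. SUT1 had no Nrg1p peak in any IP, and neither had SUT2, NRG2, TUP1, CYC8, RIM101, SNF1, MIG1, MIG2, MIG3 or HXK2. Of 21 genes of hexose transport and glucose sensing, 4 were reproducible in sut1Δ (19%) and 2 in wild type (9.52%), against 0.7% and 0.187% of all promoters. Their promoters were those of HXT11, HXT13, HXT15 and HXT16 in sut1Δ, and HXT15 and HXT16 in wild type. HXT9 had a single peak, of 263.16 in sut1Δ replicate 2, shared with the isomaltase gene IMA4. Of 16 genes for cation pumps and the alkaline response, 2 were reproducible in sut1Δ (ENA1 and ENA2, 12.5%) and 1 in wild type (ENA1, 6.25%). In sut1Δ replicates 1 and 2 the same wide peak touched both promoters, so ENA2 adds no second called site. Of 17 genes of filamentous growth and flocculation, 2 were reproducible in sut1Δ (FLO11 and MGA1, 11.8%) and 0 in wild type. FLO11 counted only through the edges of peaks centered 1192 and 1339 bp upstream. SOK2, a regulator of pseudohyphal growth, had a peak of 159.50 in sut1Δ replicate 2.

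A peak in any Nrg1p IP lay at 2.58% of all promoters. Of 30 genes for alternative carbon sources, STL1 was the sole one with such a peak (3.33%). That list includes the gluconeogenic and invertase genes classically repressed by glucose. It does not include SOR1, SOR2, DSF1 or IMA2, which had reproducible peaks in sut1Δ, as SOR1 and SOR2 also had in wild type. These 4 genes were in no list, so the count does not speak for them. None of 22 genes of sterol uptake and anaerobic cell wall and none of 17 genes of glycolysis and fermentation had a peak in any IP. At the share of all promoters, lists of this size may well hold none, so these counts show no lack of peaks. Of 18 genes for iron, copper and zinc uptake, FET4 was reproducible in each strain. The metallothionein copies CUP1-1 and CUP1-2 shared a single peak of 1125.70 in wild-type replicate 3, the highest of that list. It was 4952 bp wide, spanned both copies and was seen in no other Nrg1p IP. As with the other copied genes, its value is uncertain. Of 19 stress and reserve carbohydrate genes, HSP12 was the sole one with a peak (5.26%).

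Ribosomal protein, histone and noncoding RNA genes had few reproducible sites, as had all promoters (0.7% in sut1Δ and 0.187% in wild type). Of 137 ribosomal protein genes, 0 were reproducible in sut1Δ and 1, RPL37B, in wild type (0.73%), and RPL43B reached 340.32, RPL41B 182.40 and RPL22A 122.35 in wild-type replicate 3. The histone genes HHF1 and HHT1 shared a peak of 92.33 in wild-type replicate 3, and no other of 11 histone genes had any. Their share with a peak in any IP, 18.2%, thus came from 1 peak. A peak in any IP was found at 2.58% of all promoters. Peaks touched 5 of 275 tRNA gene promoters (1.82%), all in wild-type replicate 3, where SUP16 scored 201.28. Of 76 snoRNA genes, 10 had a peak in any IP (13.2%) and none was reproducible. There were 6 that had a peak in sut1Δ IPs, all in replicate 2, and 8 in wild-type IPs, 7 of them in replicate 3. The cluster from SNR72 to SNR78 held most of these, with a peak of 103.04 in sut1Δ replicate 2 and 72.53 in wild-type replicate 3.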

How the data were processed

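Per the labels and methods, reads of 42 bases from fragments of 200 to 600 bp were processed with CASAVA 1.8 and Novoalign 2.07.0 on build R64, uniquely aligned reads were kept, and peaks were called per IP against INPUT with MACS 1.4.0rc2 (versions and build from the submitters' processing notes, which give no order). Peak heights are the scores deposited by the authors, as MACS wrote them. Depth is unknown, so no interval or detection limit based on it is given. Positions count from 1.

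Promoters are 600 bp upstream of 6430 of 6431 nuclear genes of the R64 annotation (1 gene without a strand was left out). An overlap of 1 bp sufficed. The methods of the study test IP over INPUT ratios, which were not used here. Strains were compared with two-sided exact permutation tests over IPs, the smallest P being 0.1. Values without an IP peak were set to 0 only for ranking and for means over regions. Named are all regions found in at least 2 IPs of a strain, the 2 highest peaks of each list, the regulators, and up to 4 genes with a peak of every other list; further single genes were chosen after their values were seen. A neighboring gene of a named region is not reported here. Members, lists and rules were chosen with earlier results of these data known. Alternatives were a minimum score of 100, 100 bp of overlap, 300-bp promoters, protein-coding genes only, removal of peaks shared with 3 or more factors, leaving out each IP, and a replicate block. The 9 highest peaks of each list were added after seeing the data. Functions were tested on simulated data. Analyses used Python 3.11.15, NumPy 2.4.6 and Matplotlib 3.10.9.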

Additional observations from a re-analysis of the deposited data

How the results depend on the processing

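Of 119 alternatives to the 12 results, 7 turned the direction of a difference and 11 moved a count by over 1.5 times. The other 101 were counted as the same by rules that differed with the kind of result. A difference had to keep its direction, a count to stay within 1.5 times, and a held-out recovery to move by less than its SD. The replicate block changes P only, so its differences stayed the same by construction. Leaving out each IP in turn, the strain difference (sut1Δ minus wild type) ranged from -1.17 to 19.3 in peaks per IP (7.67 with all IPs), from -5.5 to 35 in promoters per IP (12), and from -6.22 to 3.78 in percent of peaks at a promoter (-2.03). The difference in promoters was -1.67 with the 9 highest peaks of each list, and that in percent at a promoter was 0.867 at a score of at least 100. Reproducible promoters ranged from 20 to 45 in sut1Δ (45) and from 6 to 12 in wild type (12) when an IP was left out, which could not raise them. They numbered 29 in sut1Δ and 7 in wild type at a score of at least 100, and 14 in sut1Δ and 6 in wild type with the 9 highest peaks. Promoters with a peak in every sut1Δ IP and no wild-type IP ranged from 11 to 27 when an IP was left out and numbered 2 with the 9 highest peaks. The opposite pattern ranged from 0 to 3. Leaving out an IP could not lower either number. A shorter list leaves fewer promoters to count; the cause of the reversals was not tested. The difference in median score was 104, ranged from 83.1 to 123 when an IP was left out, and was 161 at a score of at least 100 and 761 with the 9 highest peaks.

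With a replicate block, in which labels were exchanged within pairs of equal number, the median score still differed by 104 with an exact permutation P of 0.25, the smallest it allows, and P lay between 0.5 and 1 for the other 5 tests. Over 95 regions the deviations of same-numbered IPs correlated at -0.08, 0.38 and 0.28. Those of differently numbered IPs correlated between -0.36 and 0.18. Whether same-numbered IPs share more than a number was not tested. Depth is unknown, which limits every comparison of scores.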

Other observations

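Most regions had a peak in a single IP, 63 of 95, and so have no replicate support. The genes named here were picked after their values were seen and stand for no group. In sut1Δ replicate 2 alone, a peak of 202.32 lay at IME1, the master activator gene of meiosis, and one of 368.62 at COR1, which encodes a subunit of the respiratory chain. KTI12 and HAP4, an activator gene of respiration, shared a peak of 229.92 there, and peaks of 137.19 and 116.01 lay at TOS8, a homeodomain protein gene, and at SFG1, a gene of superficial pseudohyphal growth. TPO2, a polyamine exporter gene, and CBF2 had one of 227.20, PUT4, the proline permease gene, and CIN1 one of 96.07, and the ribosomal protein gene RPS3 one of 69.11. In wild-type replicate 3 alone, peaks lay at the mating-type cassette genes HMRA1 and HMRA2 (239.78), the arginine permease gene CAN1 (187.63), GCR1, an activator gene of glycolysis (96.57), and the housekeeping genes ACT1 and TUB2 (78.12).

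A number of the reproducible regions of both strains lay near chromosome ends. Within 30 kb of the outermost genes of a chromosome were 11 of 28 reproducible sut1Δ regions (39.3%) and 5 of 9 reproducible wild-type regions (55.6%). By single IPs the share of peaks was 38.5%, 26.5% and 36.8% in sut1Δ and 33.3%, 55.6% and 14.9% in wild type. Of all promoters, which are a different unit, 411 of 6430 (6.39%) lay there. The sut1Δ regions include SOR1, SOR2, HXT11, HXT13, HXT15, HXT16, DSF1, STL1, FET4 and the site near PDR18. The distance of 30 kb was chosen after the values were seen, several of these genes are near-identical copies, and no test was made.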
